A study of Mus musculus with 9 samples.

Results

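The 32 genes described here encode the machinery of mitochondrial fatty acid oxidation and ketone body metabolism, with fatty acid activating enzymes, a thioesterase and 4 regulators. They were chosen by gene symbol, and all 32 were found among the 23420 genes counted in each of 9 mouse liver RNA-seq libraries. All 32 also passed the filter on low counts that left 13020 genes for testing, and the smallest count of any of them in a library was 58 reads (Fgf21). The mice were wild-type C57BL/6 males that received a soy-free AIN-93G diet from 5 weeks of age, for 50 days, until their livers were taken at 12 weeks. The diets held 2.5 mg iron per kg (low iron), 37.5 mg per kg (sufficient iron) or 1000 mg per kg (high iron), with 3 separate mice each. Each library carries a replicate number from its title: 1, 5 and 9 for low iron, 2, 6 and 10 for sufficient iron, and 4, 8 and 12 for high iron. The protocol also describes hemojuvelin knockout mice, not analysed here. Feeding state at harvest is not given in the sources used here.

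Fatty acids are joined to coenzyme A by acyl-CoA synthetases, carried into mitochondria as carnitine esters, and shortened in repeated rounds by acyl-CoA dehydrogenases, hydratases, hydroxyacyl-CoA dehydrogenases and thiolases. Unsaturated fatty acids need extra isomerases and reductases to place their double bonds correctly, and electrons from the dehydrogenases reach the respiratory chain through electron transfer flavoprotein. The liver turns much of the resulting acetyl-CoA into ketone bodies during fasting, under control of the nuclear receptor PPAR-alpha. Several of the 32 genes act wholly or partly outside mitochondria. Decr2 and Crot encode peroxisomal enzymes, the Eci2 enzyme is found in both organelles, and Slc27a2 encodes an acyl-CoA synthetase of peroxisomes and endoplasmic reticulum.

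The libraries held 22 to 33.8 mega reads assigned to genes. The 45S ribosomal RNA precursor Rn45s made up 43.7% of gene reads in low-iron replicate 1, 40.5% in high-iron replicate 12, and between 12.5% and 23.8% in the remaining 7 libraries. Low-iron replicate 1 and sufficient-iron replicate 6 stood at opposite ends of the first principal component, which held 35.8% of the variance. Levels also followed transcript length to a different degree in each library, with Spearman correlations across genes between -0.38 (high-iron replicate 8) and 0.341 (sufficient-iron replicate 6). Hepatocyte markers summed to 48200 to 73300 CPM (read counts scaled to a common library size) in every library, and the markers of muscle reached at most 0.156 CPM and those of kidney at most 0.0366 CPM. In whole liver, fewer cells of a type and less RNA per cell cannot be told apart.

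The 32 genes together took 0.463% of the gene reads in low-iron replicate 1, the lowest share, and 1.1% in high-iron replicate 8, the highest. On the scaled CPM used below, their sum was 7942 to 9219 CPM in low-iron livers, 7282 to 8288 CPM in sufficient-iron livers and 8398 to 9250 CPM in high-iron livers. High-iron livers did not overlap sufficient-iron livers in this sum, and low-iron livers did. The median log2 deviation of the 32 genes from their means over the 9 libraries did overlap. It was -0.062 to 0.159 in high-iron and -0.197 to -0.001 in sufficient-iron livers. Per kilobase of principal transcript, averaged over the 9 libraries, Acaa2 (a mitochondrial 3-ketoacyl-CoA thiolase) had the highest level with 387 CPM per kb. Slc27a2 followed with 290, Etfb with 213 and Acsl1 with 211 CPM per kb. The lowest were Fgf21 (a hormone that liver secretes in fasting) with 8.11 CPM per kb and Pdk4 (a kinase that blocks pyruvate oxidation) with 7.04 CPM per kb.

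**Figure D1:**
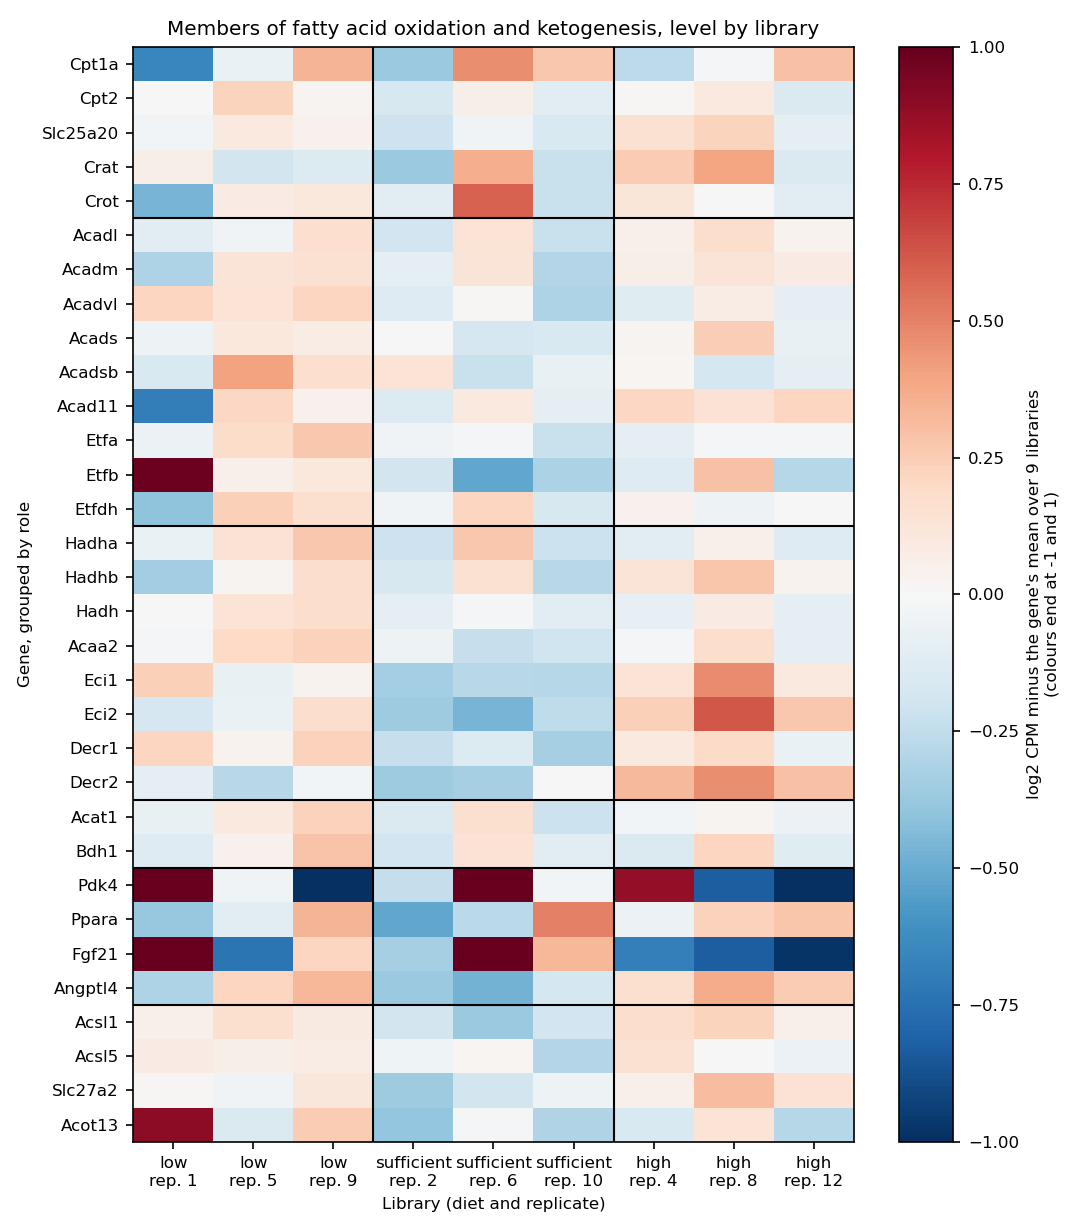
Level of each of the 32 genes in each library, as log2 CPM minus the gene's mean over 9 libraries. Rows are grouped by role and columns by diet, from low to high iron. Eci2, Eci1 and Decr2 are red in all 3 high-iron livers, and Pdk4 and Fgf21 differ more between mice of 1 diet than the other genes.

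In high-iron livers, Eci2, Decr2 and Eci1 had the lowest p-values of the 32 genes against sufficient-iron livers. None of the 32 passed edgeR's quasi-likelihood test at a Benjamini-Hochberg adjusted p under 0.05 over all genes. Of all tested genes, 0.215% passed it, 0.0998% as higher and 0.115% as lower in high-iron livers. At an unadjusted p under 0.05 there were 8 of 32, or 25%, against 9.28% of all genes. Of these, 7 had positive fold changes (all genes, 4.16%) and 1, Fgf21, had a negative one (all genes, 5.12%). DESeq2, which left some of the 13020 genes without an adjusted p, called 5 of the 32 (Acsl1, Angptl4, Decr2, Eci1 and Eci2), and 218 of all genes. From limma-voom there were 0 of the 32 and 26 of all genes. With sample quality weights limma-voom called Eci2 alone of the 32, and 92 of all genes. Leaving out low-iron replicate 1, which lies outside this contrast but enters the shared dispersion, brought Eci2 and Angptl4 past the edgeR threshold. The median log2 fold change of the 32 was 0.17, with 25 of 32 positive, against -0.01 over all genes. It was 0.09 without sufficient-iron replicate 10, 0.10 without high-iron replicate 8 and 0.11 without sufficient-iron replicate 2.

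Eci2 encodes an enoyl-CoA isomerase that moves double bonds of unsaturated fatty acids (chr13:34977748-35027096, GRCm38, minus strand). It had 160, 209 and 164 CPM in high-iron livers, against 106, 98.3 and 114 CPM in sufficient-iron livers. Every high-iron liver was above every sufficient-iron one, and the log2 fold change was 0.74 ± 0.14 (SE), or 1.67-fold, with an adjusted p of 0.0742 by edgeR. Decr2 encodes the peroxisomal 2,4-dienoyl-CoA reductase (chr17:26081208-26090337, minus strand). Its levels were 286, 315 and 280 CPM in high-iron livers, against 179, 182 and 228 CPM in sufficient-iron livers, again without overlap. The log2 fold change was 0.58 ± 0.13 (adjusted p 0.131, edgeR).

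Eci1, which encodes the mitochondrial enoyl-CoA isomerase (chr17:24426641-24439348, plus strand), had 129, 162 and 125 CPM in high-iron livers, against 92.3, 96.7 and 96.1 CPM in sufficient-iron livers. The groups did not overlap, and the SD was 20.2 CPM in high-iron and 2.39 CPM in sufficient-iron livers. The log2 fold change was 0.54 ± 0.13 (adjusted p 0.174, edgeR). It was 0.41 when each library's trend with transcript length was removed, and 0.41 without high-iron replicate 8. Decr1, the mitochondrial 2,4-dienoyl-CoA reductase, averaged 234 ± 20.4 CPM in high-iron and 189 ± 12.7 CPM in sufficient-iron livers (SD, n = 3 each; log2 fold change 0.31 ± 0.11). The remaining genes of the later steps, Hadha, Hadhb, Hadh and Acaa2, had log2 fold changes between -0.03 and 0.23, and all 4 overlapped between these diets.

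The promoters of Eci2, Decr2 and Eci1, the 3 genes with the lowest p-values in this comparison, are shown with that of Hadhb, which lies head to head with Hadha. Windows run from 250 bases before to 50 after the start site, from RefSeq on GRCm38.p6, and are written 5′ to 3′ on the gene's strand. They are chr13:34994095-34994394 (Eci2, minus), chr17:26090115-26090414 (Decr2, minus), chr17:24426433-24426732 (Eci1, plus) and chr5:30155003-30155302 (Hadhb, plus). The Eci2 window lies at the RefSeq start site, inside the longer GENCODE span given above, which includes transcripts that start further upstream. Capitals mark GGGCGG (GC box), CCAAT and AGGTCA (a nuclear receptor half-site), on either strand.
Eci2: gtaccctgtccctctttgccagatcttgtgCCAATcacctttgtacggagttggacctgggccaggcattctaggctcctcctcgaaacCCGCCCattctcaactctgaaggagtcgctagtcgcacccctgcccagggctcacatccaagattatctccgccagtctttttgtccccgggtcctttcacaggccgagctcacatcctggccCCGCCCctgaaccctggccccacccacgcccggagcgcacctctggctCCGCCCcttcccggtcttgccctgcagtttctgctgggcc
Decr2: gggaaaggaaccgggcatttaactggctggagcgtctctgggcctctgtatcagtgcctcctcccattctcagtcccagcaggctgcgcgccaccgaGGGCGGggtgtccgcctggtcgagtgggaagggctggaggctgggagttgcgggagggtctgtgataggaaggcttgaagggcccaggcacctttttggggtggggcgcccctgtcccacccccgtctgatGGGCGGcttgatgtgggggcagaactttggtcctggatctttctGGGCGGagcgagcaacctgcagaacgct
Eci1: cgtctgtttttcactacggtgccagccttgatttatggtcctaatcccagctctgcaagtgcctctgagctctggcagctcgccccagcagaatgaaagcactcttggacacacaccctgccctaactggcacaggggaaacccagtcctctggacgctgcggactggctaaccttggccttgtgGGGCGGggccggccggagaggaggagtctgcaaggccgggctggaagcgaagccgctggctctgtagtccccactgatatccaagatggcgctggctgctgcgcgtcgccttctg
Hadhb: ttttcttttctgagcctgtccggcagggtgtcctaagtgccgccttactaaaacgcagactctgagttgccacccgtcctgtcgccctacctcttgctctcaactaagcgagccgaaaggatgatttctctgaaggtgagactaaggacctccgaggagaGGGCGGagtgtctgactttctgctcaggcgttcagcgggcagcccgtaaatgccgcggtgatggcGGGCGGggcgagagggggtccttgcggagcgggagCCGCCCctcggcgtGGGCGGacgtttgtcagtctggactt
Windows were found for 26 of the 32 genes, 28 windows in all, and Acaa2, Acat1, Decr1, Crat, Acot13 and Angptl4 had no entry. Windows of all genes numbered 32851 and were not limited to the 13020 genes tested here, for which no separate share was made. GGGCGG was present in 75% of the 28 windows and in 35.7% of the 32851. CCAAT was present in 39.3% and 37.4%, and AGGTCA in 14.3% and 16.3%. The PPAR-alpha type of element, 2 copies of AGGNCA separated by 1 base, was found on neither strand in any of the 28 windows and in 0.381% of all windows. The Hadha and Hadhb windows share 228 bases on opposite strands.

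Among genes of fatty acid activation, Acsl1, the main long-chain acyl-CoA synthetase of liver, had 923, 952 and 848 CPM in high-iron livers, against 718, 631 and 715 CPM in sufficient-iron livers. The groups did not overlap (log2 fold change 0.40 ± 0.11, adjusted p 0.245, edgeR). Slc27a2 had 868, 1040 and 927 CPM in high-iron livers, against 656, 739 and 811 CPM in sufficient-iron livers (0.36 ± 0.12, adjusted p 0.418, edgeR), also without overlap. Acsl5, a second long-chain synthetase, and Acot13, a thioesterase that releases fatty acids from coenzyme A, overlapped between the diets.

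Angptl4, a secreted inhibitor of lipoprotein lipase and a PPAR-alpha target gene, had 72.3, 83.5 and 77.2 CPM in high-iron livers, against 50, 46.5 and 57.2 CPM in sufficient-iron livers. The groups did not overlap (log2 fold change 0.60 ± 0.16, adjusted p 0.245, edgeR). Adipocytes also express Angptl4. The 6 adipocyte markers summed to 7.46 to 15.2 CPM in high-iron and 6.04 to 10.8 CPM in sufficient-iron livers, with Plin1 and Lep at 0 in all libraries. Their part in the Angptl4 values was not tested.

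Fgf21 had 3.81, 3.46 and 3.1 CPM in high-iron livers, against 4.85, 21.8 and 7.7 CPM in sufficient-iron livers. The groups did not overlap, with sufficient-iron replicate 6 far above the rest (log2 fold change -1.73 ± 0.57, adjusted p 0.4, edgeR). Without that replicate the log2 fold change was -0.86. Ppara, which encodes the receptor itself, had 280, 341 and 352 CPM in high-iron livers and 203, 241 and 412 CPM in sufficient-iron livers, which overlapped.

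The carnitine shuttle, the acyl-CoA dehydrogenases and the ketone genes contributed none of the 8. Cpt1a, the outer-membrane carnitine palmitoyltransferase and the control point of fatty acid entry, had 291, 345 and 429 CPM in high-iron livers, against 270, 482 and 422 CPM in sufficient-iron livers. Its levels in low-iron livers were 222, 334 and 442 CPM. Acadm, the medium-chain acyl-CoA dehydrogenase, averaged 288 ± 6.96 CPM in high-iron and 257 ± 37.8 CPM in sufficient-iron livers (SD, n = 3 each). Of the 9 dehydrogenase and electron transfer genes, Acad11 alone separated the diets, with 336, 322 and 338 CPM in high-iron livers, against 264, 312 and 273 CPM in sufficient-iron livers. Acad11 overlaps Ccrl1 on the other strand. Counting Acad11, 8 of 32 genes (25%) were higher in high-iron livers without overlap, where 8.99% of all genes were, and Fgf21 was lower without overlap, where 8.85% were. The ketone genes Acat1 (acetoacetyl-CoA thiolase) and Bdh1 (3-hydroxybutyrate dehydrogenase) both had log2 fold changes of 0.04, and both changed sign under some alternatives. Acat1 had 359, 373 and 351 CPM in high-iron livers, against 332, 409 and 316 CPM in sufficient-iron livers. In low-iron livers it had 348, 391 and 430 CPM.

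**Figure D2:**
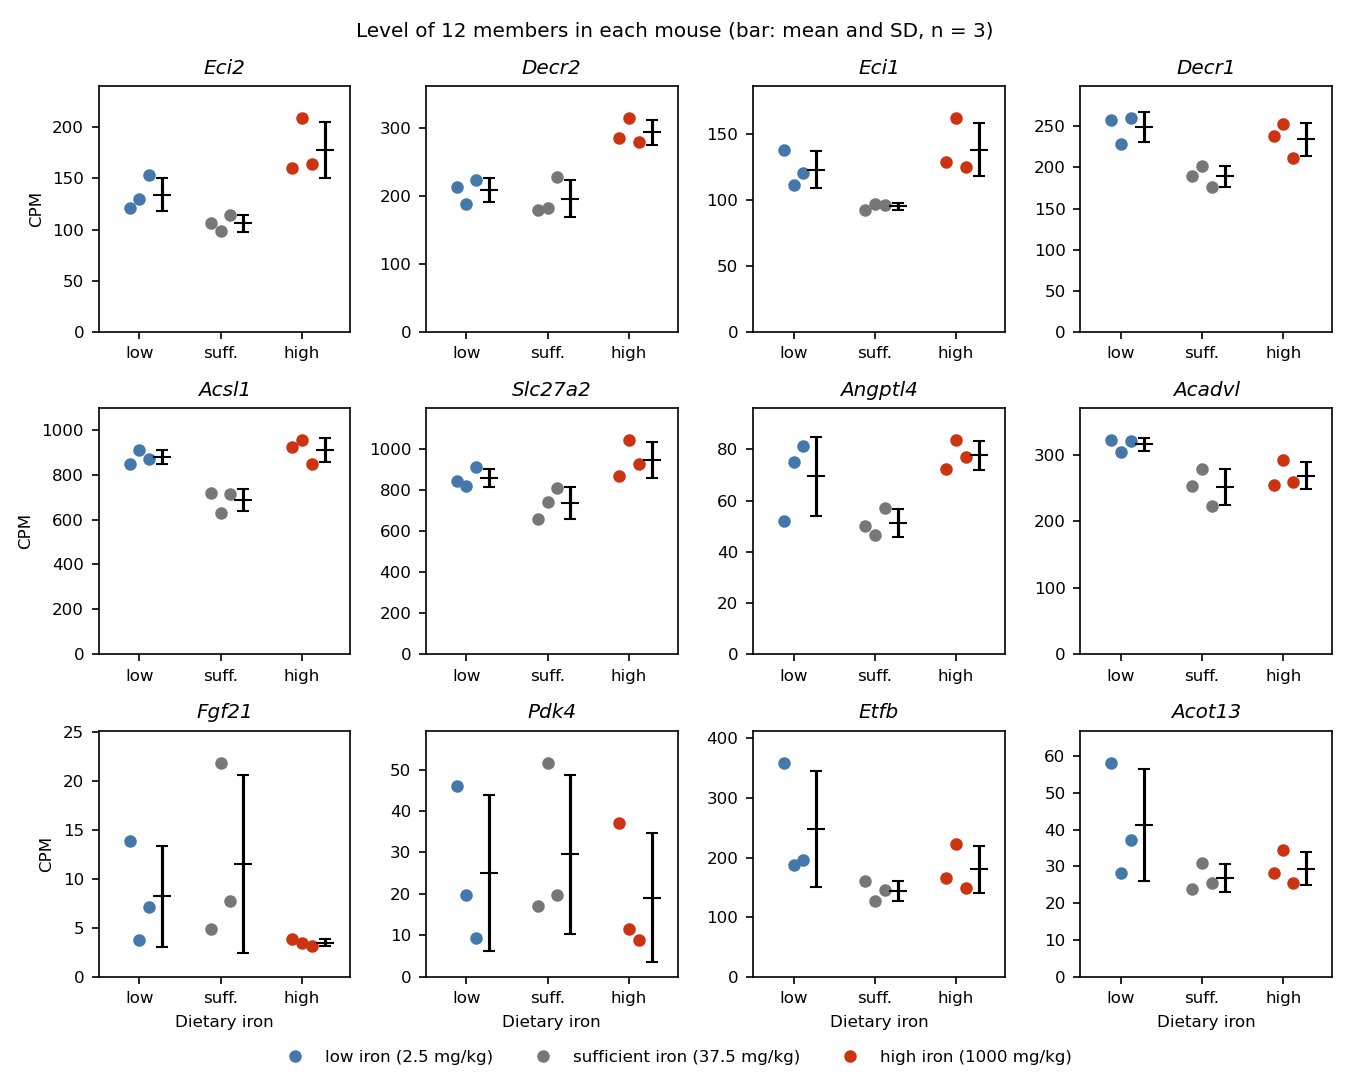
CPM of 12 of the genes in each liver, with 1 point per mouse and a black bar for the mean and SD (n = 3). Eci2, Decr2, Eci1, Acsl1 and Angptl4 separate high-iron from sufficient-iron livers, while Fgf21 and Pdk4 have single mice far above the others of their diet.

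In low-iron livers, Decr1, Acsl1, Etfb, Eci1 and Acadvl had the lowest p-values of the 32 genes against sufficient-iron livers. None of the 32 passed the edgeR test, as none of the 13020 genes did (0% called). At an unadjusted p under 0.05 there were 9 of 32, or 28.1%, all with positive fold changes, against 11.2% of all genes in either direction, 5.79% with positive and 5.41% with negative ones. DESeq2 called 4 (Acadvl, Acsl1, Decr1 and Etfb), and 105 of all genes. With and without quality weights limma-voom called 0 of the 32, and 2 and 0 of all genes. The median log2 fold change was 0.15, with 26 of 32 positive, against 0 over all genes. Low-iron livers were higher without overlap for 11 of 32 genes (34.4%), where 8.81% of all genes were, and lower for 0, where 7.83% were. The sufficient-iron livers are shared with the comparison above, so the 2 comparisons are not independent of each other.

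Decr1 had the lowest p here, with 258, 228 and 260 CPM in low-iron livers, against 189, 202 and 176 CPM in sufficient-iron livers (log2 fold change 0.40 ± 0.11, adjusted p 0.446, edgeR). Acsl1 had 848, 911 and 871 CPM in low-iron livers, against 718, 631 and 715 CPM in sufficient-iron livers (0.35 ± 0.11, adjusted p 0.446, edgeR). Neither gene overlapped between these diets. Eci1 had 138, 111 and 120 CPM in low-iron livers, against 92.3, 96.7 and 96.1 CPM in sufficient-iron livers, a log2 fold change of 0.37 ± 0.13 that became 0.19 when each library's trend with transcript length was removed. Acadvl, the very long-chain acyl-CoA dehydrogenase, had 322, 305 and 321 CPM in low-iron livers, against 254, 279 and 224 CPM in sufficient-iron livers (0.33 ± 0.12). Acadvl overlaps Dvl2 on the other strand, and the strand of the reads is not known.

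Etfb, the beta subunit of electron transfer flavoprotein, had 359, 188 and 196 CPM in low-iron livers, against 160, 127 and 146 CPM in sufficient-iron livers. The groups did not overlap, and low-iron replicate 1 stood far above the other 8 libraries. The log2 fold change was 0.78 ± 0.25 with it and 0.40 without it, and 0.50 with the length trend removed. Acot13 had 58.2, 28.3 and 37.2 CPM in low-iron livers, against 23.9, 31 and 25.4 CPM in sufficient-iron livers, and overlapped. Its log2 fold change was 0.61 ± 0.23, against 0.28 without low-iron replicate 1 and 0.27 with the length trend removed. Etfa, the partner subunit of Etfb, had 264, 313 and 331 CPM in low-iron livers, against 269, 273 and 236 CPM in sufficient-iron livers.

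Acot13, Etfb and Fgf21 have the 3 shortest transcripts of the 32, at 721, 893 and 951 bases. In low-iron replicate 1 they lay 0.89, 0.98 and 1.16 log2 units above their means over the 9 libraries. Pdk4, with 3484 bases, lay 1.19 above its mean in that library. The part of transcript length in these values was not tested beyond the length-corrected fits given here.

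**Figure D3:**
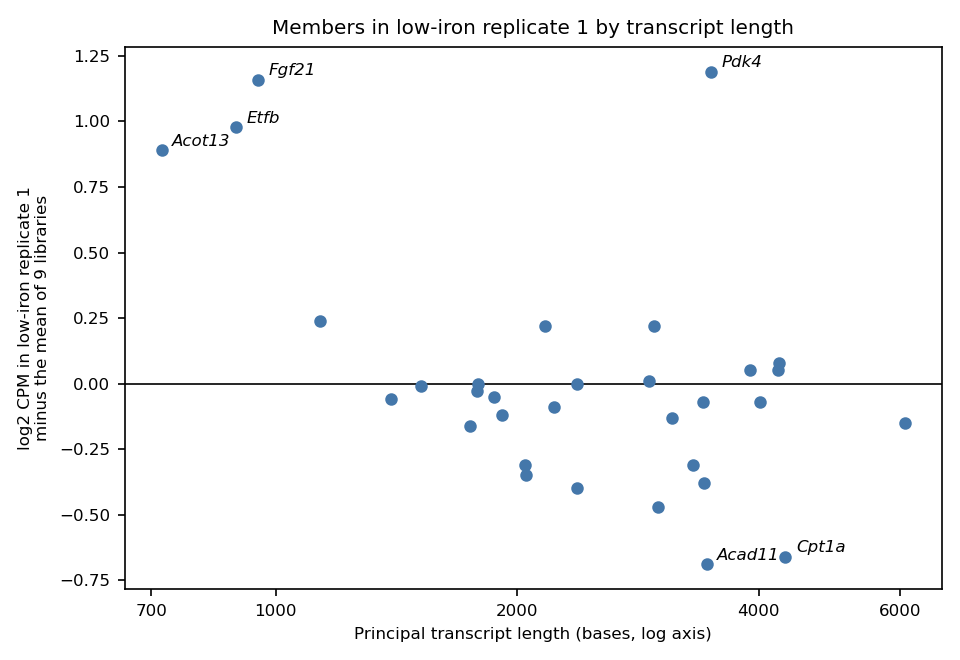
Deviation of each of the 32 genes in low-iron replicate 1 from its mean over 9 libraries (log2 CPM), against principal transcript length on a log axis. Acot13, Etfb and Fgf21, the 3 shortest, lie at 0.89, 0.98 and 1.16, and Pdk4 lies at 1.19 with a transcript of 3484 bases.

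The remaining genes with an unadjusted p under 0.05 in low-iron livers were Angptl4, Acaa2 and Eci2. Angptl4 had 52.1, 75.2 and 81.2 CPM in low-iron livers, against 50, 46.5 and 57.2 CPM in sufficient-iron livers, with low-iron replicate 1 inside the sufficient-iron range. Acaa2 averaged 643 ± 55.9 CPM in low-iron and 522 ± 36 CPM in sufficient-iron livers, and Eci2 averaged 134 ± 16.2 CPM in low-iron and 106 ± 8.02 CPM in sufficient-iron livers (SD, n = 3 each). Both separated the diets. Without low-iron replicate 9, the count with an unadjusted p under 0.05 was 5 (all genes, 12.8%). Without low-iron replicate 1 and sufficient-iron replicate 6 together it was 15 (all genes, 6.54%).

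Between the extreme diets, Decr2 and Eci2 were the 2 genes of the 32 with an unadjusted p under 0.05, or 6.25%, both with positive fold changes. Of all genes 9.65% had such a p, 4.22% with positive and 5.44% with negative fold changes. None of the 32 passed the edgeR test, where 0.507% of all genes did. DESeq2 called Decr2, and 365 of all genes. With and without quality weights limma-voom called 0 of the 32, and 378 and 64 of all genes. The median log2 fold change was 0, with 16 of 32 positive, against -0.01 over all genes. High-iron livers were higher without overlap for 2 of the 32, where 7.59% of all genes were, and lower for 1, Acadvl, where 8.15% were.

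Decr2 had 286, 315 and 280 CPM in high-iron livers, against 214, 189 and 224 CPM in low-iron livers (log2 fold change 0.49 ± 0.13, adjusted p 0.153, edgeR). Eci2 had 160, 209 and 164 CPM in high-iron livers, against 121, 130 and 153 CPM in low-iron livers (0.40 ± 0.14, adjusted p 0.32, edgeR). Acadvl had 255, 292 and 259 CPM in high-iron livers, against 322, 305 and 321 CPM in low-iron livers (-0.23 ± 0.12, adjusted p 0.569, edgeR). Without high-iron replicate 8 the log2 fold change of Eci2 was 0.27. Acot13 had 28.1, 34.4 and 25.6 CPM in high-iron livers, against 58.2, 28.3 and 37.2 CPM in low-iron livers, which overlapped. Its log2 fold change of -0.48 became -0.15 without low-iron replicate 1. Fgf21 had 3.81, 3.46 and 3.1 CPM in high-iron livers, against 13.8, 3.69 and 7.12 CPM in low-iron livers, and its log2 fold change of -1.20 became -0.63 without low-iron replicate 1.

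**Figure D4:**
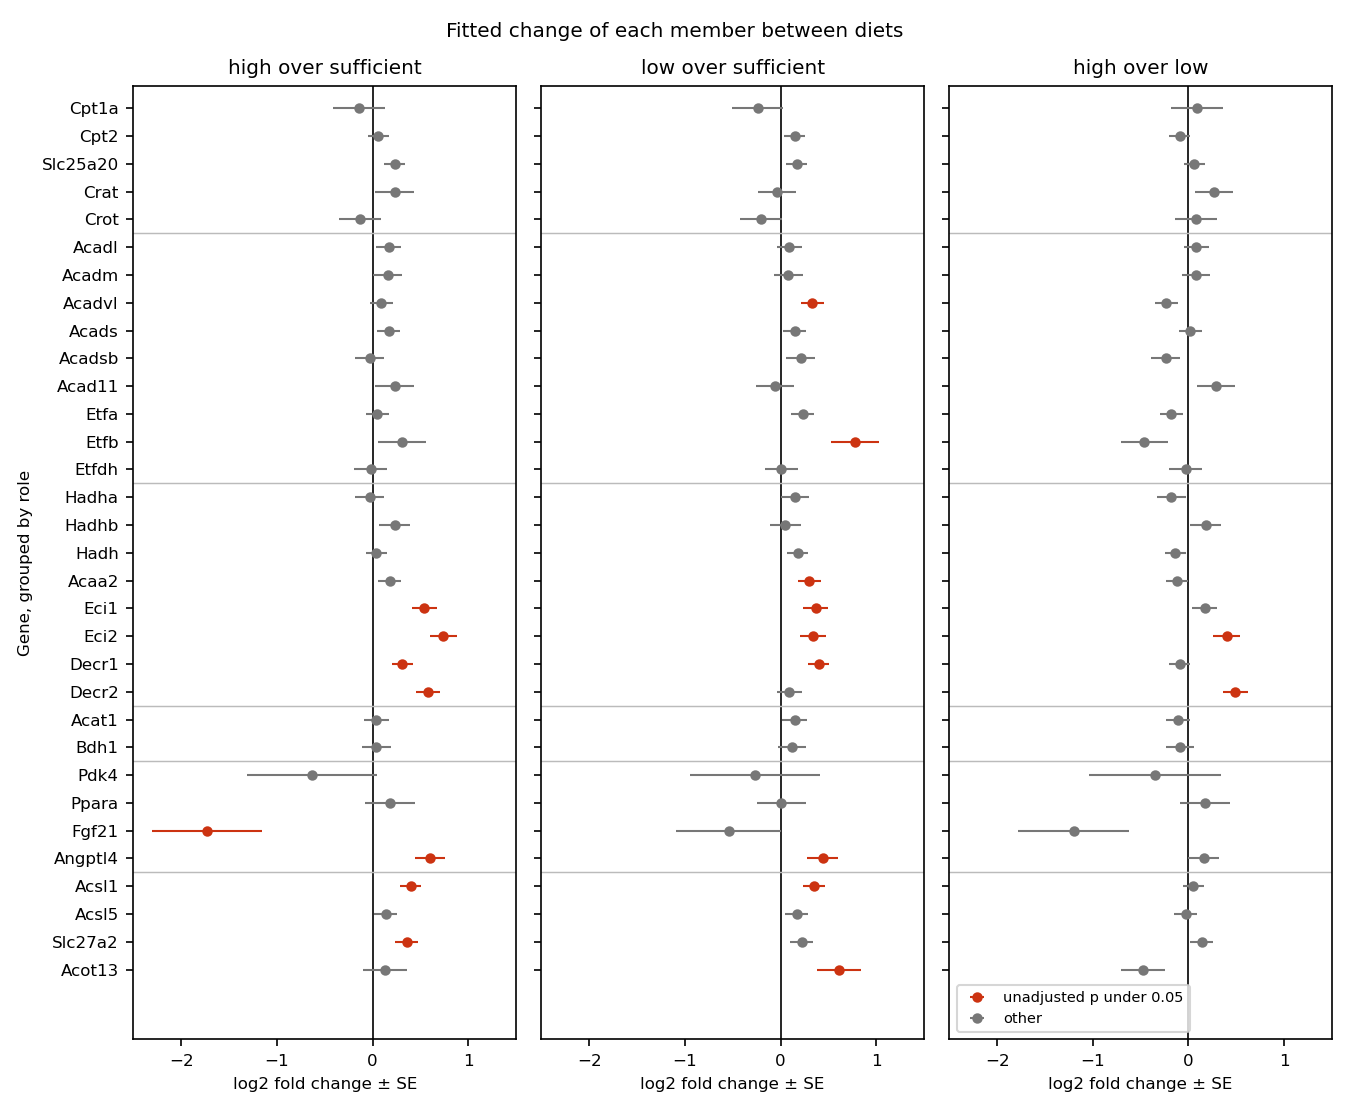
Fitted log2 fold change and standard error of each of the 32 genes in the 3 comparisons, in role order. Red points have an unadjusted p under 0.05, which 8, 9 and 2 genes had in high over sufficient, low over sufficient and high over low iron, and no gene passed the adjusted threshold.

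Across the 3 diets together, 0 of 32 genes passed the edgeR test (all genes, 0.215%) and 10 had an unadjusted p under 0.05, or 31.2%, against 10.7% of all genes. DESeq2 called 5, limma-voom 0, and limma-voom with quality weights Eci2 alone. Counts over all genes with these tools were not made for the 3 diets together. Eci2 had the lowest adjusted p at 0.112. In a fit on log10 of dietary iron, 0 of 32 passed (all genes, 0.307%) and Decr2 alone had an unadjusted p under 0.05 (3.12%, against 8.73% of all genes), with a slope of 0.20 ± 0.06 log2 units per 10-fold iron (adjusted p 0.288, edgeR). The other tools called 0 in this fit. Decr2 averaged 209 ± 17.7, 196 ± 27.5 and 294 ± 18.5 CPM in low-iron, sufficient-iron and high-iron livers (SD, n = 3 each), with low-iron and sufficient-iron livers overlapping.

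The genes varied unequally between mice of 1 diet. The median SD within a diet was 0.183 log2 units over the 32 genes, against 0.223 over all genes, and Hadh (a short-chain hydroxyacyl-CoA dehydrogenase) had the smallest at 0.0818. Pdk4 had the largest at 1.04, followed by Fgf21 at 0.842, Cpt1a at 0.417 and Ppara at 0.386. Pdk4 had 46, 19.7 and 9.3 CPM in low-iron livers, 17.1, 51.6 and 19.8 CPM in sufficient-iron livers and 37, 11.4 and 8.87 CPM in high-iron livers. In each diet 1 mouse, replicates 1, 6 and 4, stood above the other 2. The same mice were highest for Fgf21 in their diets, though in high-iron livers Fgf21 ranged only between 3.1 and 3.81 CPM.

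Hadha and Hadhb encode the alpha and beta subunits of the mitochondrial trifunctional protein. Hadhb had 0.693, 0.775 and 0.79 times the CPM of Hadha in low-iron livers, 0.862, 0.773 and 0.807 times in sufficient-iron livers, and 0.994, 0.979 and 0.936 times in high-iron livers. The 3 high-iron livers were above the other 6. This ratio was looked at after the values were seen, and 66 of the 496 possible pairs of the 32 genes (13.3%) had ratios that were all higher or all lower in the 3 high-iron livers than in the other 6.

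Of 55 other genes of fatty acid and ketone metabolism, 50 were tested and 0 passed the edgeR test in any pairwise comparison. Cpt1b, Cpt1c, Tmlhe, Eci3 and Acsl6 had too few reads. DESeq2 called 2, 3 and 4 of the 50 for high over sufficient, low over sufficient and high over low iron, limma-voom called 0, and quality weights gave 4 for high over low iron alone. An unadjusted p under 0.05 was reached by 7 of the 50 with positive and 2 with negative fold changes for high over sufficient iron (all genes, 4.16% and 5.12%). For low over sufficient iron they were 7 and 1 (all genes, 5.79% and 5.41%), and for high over low iron 4 and 7 (all genes, 4.22% and 5.44%). Slc27a1, a fatty acid transport protein, had 5.45, 8.02 and 9.19 CPM in high-iron livers, against 3.02, 2.44 and 4.06 CPM in sufficient-iron livers (log2 fold change 1.25 ± 0.24, adjusted p 0.081, edgeR). Mlycd, malonyl-CoA decarboxylase, had 93.4, 108 and 85.9 CPM in high-iron livers, against 67.1, 69.1 and 78.7 CPM in sufficient-iron livers (0.42 ± 0.11, adjusted p 0.245, edgeR). Acsm1, a medium-chain acyl-CoA synthetase, had 238, 212 and 221 CPM in low-iron livers, against 162, 158 and 151 CPM in sufficient-iron livers (0.51 ± 0.11, adjusted p 0.446, edgeR).

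A further list held 17 genes taken as PPAR-alpha targets, none of them among the 32. Most are peroxisomal or omega-oxidation genes, but Vnn1, Fabp1, Plin2, Cidec and Cd36 are not. In high-iron against sufficient-iron livers, 3 of the 17 rose by the edgeR test (all genes, 0.0998%), and 0 fell. They were Ehhadh (peroxisomal bifunctional enzyme; log2 fold change 1.74 ± 0.23, adjusted p 0.0265), Cyp4a10 (a fatty acid omega-hydroxylase with close paralogs, whose reads are uncertain; 1.43 ± 0.17, adjusted p 0.0194) and Acaa1b (0.89 ± 0.14, adjusted p 0.0341). The median log2 fold change of the 17 was 0.49, against 0.17 for the 32, and no test of this difference was made. All 3 calls were lost without high-iron replicate 4, high-iron replicate 8 or sufficient-iron replicate 10, with adjusted p between 0.0691 and 0.222. Without sufficient-iron replicate 2, Ehhadh and Acaa1b were lost (adjusted p 0.0767 and 0.105). Without sufficient-iron replicate 6, low-iron replicate 9 or high-iron replicate 12, Acaa1b alone was lost (adjusted p 0.0754, 0.0517 and 0.101). DESeq2 called 8 of the 17, limma-voom 3 and limma-voom with quality weights 6, all higher in high-iron livers. In low-iron against sufficient-iron livers, edgeR called 0 of the 17 (all genes, 0%), and their median log2 fold change was 0.13. Of the 17, 4 had positive and 2 negative fold changes at an unadjusted p under 0.05 (all genes, 5.79% and 5.41%). Cyp4a10 and Acaa1b were higher in low-iron livers without overlap (0.84 ± 0.17 and 0.43 ± 0.14, both adjusted p 0.446, edgeR). DESeq2 called these 2 alone, and limma-voom 0 with or without quality weights.

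In high-iron against low-iron livers, Ehhadh alone of the 17 rose by edgeR (log2 fold change 1.65 ± 0.23, adjusted p 0.0172). Of the 17, 10 had positive fold changes with an unadjusted p under 0.05, where 4.22% of all genes did. DESeq2 called 8, limma-voom 1 and limma-voom with quality weights 5, all higher in high-iron livers. The edgeR call was lost without low-iron replicate 9, high-iron replicate 4 or high-iron replicate 8 (adjusted p 0.0804, 0.0886 and 0.0855).

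In the same comparison, edgeR called 0.346% of all genes as lower in high-iron livers. Of 12 lipogenic genes, Pklr, liver pyruvate kinase, fell (log2 fold change -1.10 ± 0.20, adjusted p 0.0432, edgeR). At an unadjusted p under 0.05, 2 of the 12 had negative fold changes and 1, Me1, a positive one (all genes, 5.44% and 4.22%). Of 10 pericentral hepatocyte markers Rhbg and Oat fell (adjusted p 0.0191 and 0.0328, edgeR). At an unadjusted p under 0.05, 6 of the 10 had negative and 0 had positive fold changes. DESeq2 called 1 lipogenic and 5 pericentral genes, limma-voom 1 and 2, and limma-voom with quality weights 1 and 5, all lower in high-iron livers. The calls of Pklr, Rhbg and Oat were lost when high-iron replicate 4 or 8, or low-iron replicate 5 or 9, was left out, with adjusted p between 0.0511 and 0.188. Pklr was also lost without low-iron replicate 1 or sufficient-iron replicate 10 (0.0598 and 0.0579), and Pklr and Oat without high-iron replicate 12 (0.131 and 0.0717). Of 12 fasting genes and 9 tested periportal markers edgeR called 0, with 3 and 4 at an unadjusted p under 0.05 (all genes, 9.65%). For these 2 lists DESeq2 called 2 and 1, limma-voom 0 and 0, and limma-voom with quality weights 1 and 0.

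Marker sums of liver cell types differed in range between diets. Hepatocyte markers summed to 64900 to 73300, 51100 to 72400 and 48200 to 57500 CPM in low-iron, sufficient-iron and high-iron livers, and Kupffer cell markers summed to 68.6 to 161, 159 to 268 and 139 to 173 CPM. Erythroid markers summed to 87 to 126, 62.4 to 81.6 and 28.1 to 38.4 CPM. Their part in the values of the 32 genes was not tested.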

How the data were processed

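Liver RNA of 9 mice was extracted with RNeasy columns, made into libraries with a TruSeq RNA kit and read on an Illumina HiSeq instrument, per the labels' protocols. For each library the authors deposited raw read counts per gene symbol, covering 23420 genes, and 5 category entries left out here. FastQC and both mm10 and mm9 are named by the submitters' processing notes, with no role for either build. The aligner, counter and strandedness were not given in the sources used here. Spans of 7 of the 32 genes overlap a protein-coding gene on the other strand (GENCODE vM21), and without strand the reads of such pairs cannot be told apart.

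The analysis used R 4.3.3 and edgeR 4.0.16, with filterByExpr, TMM scaling and robust quasi-likelihood F-tests in 1 model of diet over the 9 libraries. EdgeR's p-values were adjusted by Benjamini-Hochberg over 13020 genes, with 0.05 as the threshold. DESeq2 applied its own filter before adjustment, and genes it left without an adjusted p count as not called. Angptl4 for low over sufficient iron was 1 of these. The p-values set a difference between diets against variation between mice, estimated over all 9 libraries with information shared across genes. Each diet had 3 mice. CPM uses scaled library sizes. The SE is the log2 fold change divided by the square root of F. The common biological coefficient of variation was 0.177. Wilson 95% intervals of read shares were at most 0.0415 points wide and cover counting error only.

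Alternatives were DESeq2 1.42.0, limma-voom (limma 3.58.1), other scalings and filters, libraries left out, and an offset for each library's trend with transcript length (a length was found for 99.3% of tested genes). For the 5 genes with the lowest p in each pairwise comparison, values are given in every library of the diets compared. At least 1 gene of each role has values in all 9 libraries. The 32 genes, the lists and the tests were chosen with earlier results of these data known. The motifs other than the PPAR-alpha type, the gene pair ratio and the leave-one-out values of genes outside the 32 were added after the values were seen.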

Additional observations from a re-analysis of the deposited data

How the results depend on the processing

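All 23 single-gene results kept their direction in the 459 values computed under the alternatives, and 13 of these newly passed the threshold. Among all 96 fold changes of the 32 genes, 37 changed sign under some alternative, the largest in size being 0.63. Some of these are printed above, such as 0.04 for Acat1 and Bdh1 for high over sufficient iron. The counts of positive fold changes among the 32 also include them. No paired analysis was possible because the diets share no replicate number, and the labels tie no number to a litter, batch or day.

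Counts of the 32 genes past the test, 0 with edgeR, were 5 with DESeq2, 1 with limma-voom quality weights, 1 at an adjusted p under 0.1 and 0 to 2 with 1 library left out (2 without low-iron replicate 1) for high over sufficient iron. They were 4 for low over sufficient iron and 1 for high over low iron with DESeq2, and 5 with DESeq2 and 1 with quality weights for the 3 diets. Over all genes DESeq2 called 218, 105 and 365 in the 3 pairwise comparisons, against 28, 0 and 66 with edgeR. For high over sufficient iron the 28 became 0 without high-iron replicate 4 or 8, 4 without sufficient-iron replicate 10, 8 without high-iron replicate 12, 11 without low-iron replicate 9, 13 without sufficient-iron replicate 6, 16 without low-iron replicate 5, 18 without sufficient-iron replicate 2 and 56 without low-iron replicate 1. For high over low iron the 66 became 0 without high-iron replicate 8, 1 without high-iron replicate 4, 6 without low-iron replicate 9, 13 without high-iron replicate 12, 23 without low-iron replicate 5, 106 without low-iron replicate 1 and 112 without sufficient-iron replicate 6. For the other pathway genes, also 0 with edgeR, high over sufficient iron gave 2 with DESeq2 and 1 each without a filter, with the length offset and at 0.1. Low over sufficient iron gave 3 with DESeq2. High over low iron gave 4 with DESeq2, 4 with quality weights, 3 without low-iron replicate 1 and sufficient-iron replicate 6, 2 with the length offset, 1 at 0.1 and 0 to 1 with 1 library left out (Pcca, without low-iron replicate 1). Without both low-iron replicate 1 and sufficient-iron replicate 6, the median log2 fold change of the 32 genes for low over sufficient iron was 0.28. In the same fit 13 of the 32 had a positive fold change with an unadjusted p under 0.05 for high over sufficient iron (all genes, 4.81%). For high over low iron, 2 of the 32 had an unadjusted p under 0.05 in either direction, with the share of all genes at 9.65%. There were 6 without low-iron replicate 5 (all genes, 9.14%) and 4 without low-iron replicate 1 (all genes, 11.1%). Without low-iron replicate 1 and sufficient-iron replicate 6 there were 6 (all genes, 13.9%). The length offset gave 5 (all genes, 11.4%) and quality weights gave 6 (all genes, 16%). Quality weights also gave 16 for low over sufficient iron (all genes, 11.1%). The cause of these shifts was not tested. Every one of the 32 genes had at least 58 reads in each library, and 3 mice per diet limit the precision.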
